A study of Mus musculus with 4 samples.

Results

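The 9 genes described here are the sarcomere genes that the heart switches between fetal and adult life, together with *Nppb*, which is commonly read beside them. They are the myosin heavy chain genes *Myh6*, *Myh7* and *Myh7b*, the troponin I genes *Tnni1* and *Tnni3*, the slow skeletal troponin T gene *Tnnt1*, the striated muscle actin genes *Actc1* and *Acta1*, and the natriuretic peptide gene *Nppb*. They were taken by name from the 24454 genes of the count table, after Entrez Gene identifiers had been matched to symbols, and all 9 passed the filter on low counts that left 14266 genes for testing. RNA-seq of total RNA from mouse hearts at postnatal day 7 (P7) gave 4 libraries. The Ctrl libraries, WH7 and WH8, came from miR-128 TetRE mice, which carry the *miR-128* transgene behind a tetracycline response element and no transactivator. The miR-128OE libraries, WH9 and WH10, came from α-MHC-tTA; miR-128 TetRE mice, in which the α-MHC promoter, that of *Myh6*, drives the transactivator tTA in cardiomyocytes and doxycycline in the diet keeps the transgene off. Both groups share the TetRE transgene, and tTA is present in miR-128OE mice alone, so tTA and *miR-128* cannot be told apart in these libraries. When doxycycline was withdrawn for the P7 hearts, and whether a library is 1 heart or a pool, was not given in the sources used here, so p-values measure the spread between these libraries, which may be technical.

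As background, the force of a heartbeat comes from myosin heads of the thick filament pulling on actin of the thin filament, and the troponin complex (C, I and T) on the thin filament makes this depend on calcium. Several of these proteins have a fetal and an adult form, coded by different genes. In the mouse ventricle β-myosin heavy chain (*Myh7*) gives way to the faster α form (*Myh6*) around birth, and slow skeletal troponin I (*Tnni1*) gives way to cardiac troponin I (*Tnni3*) over the first weeks of life. *Acta1* codes for skeletal and *Actc1* for cardiac α-actin. *Nppb* codes for B-type natriuretic peptide, which ventricular myocytes release under stretch, and a joint rise of *Myh7*, *Acta1* and the natriuretic peptides is the usual sign of the fetal gene program in a loaded heart.

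The 3 myosin genes each hold a muscle microRNA in their own transcript, and *miR-128* is the microRNA that was overexpressed, so their mature sequences are shown first, 5′ to 3′, with the seed (bases 2 to 8) in capitals. They are taken from RefSeq on GRCm38.p6, where *miR-208a* lies in *Myh6* (chr14:54949072-54949093, minus strand), *miR-208b* in *Myh7* (chr14:54975710-54975731, minus strand) and *miR-499* in *Myh7b* (chr2:155622893-155622913, plus strand), and a locus of *miR-128* is at chr1:128202404-128202424 on the plus strand.
miR-208a-3p: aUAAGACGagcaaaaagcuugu
miR-208b-3p: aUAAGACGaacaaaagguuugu
miR-499-5p: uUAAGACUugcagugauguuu
miR-128-3p: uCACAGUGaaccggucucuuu
The seeds of *miR-208a* and *miR-208b* are the same 7 bases, and that of *miR-499* shares the first 6 of them. The longest annotated 3′UTRs of the 9 genes were searched for a match to bases 2 to 8 of *miR-128* on the transcript strand, and 1 match was found, in *Tnni3*, whose 3′UTR is 63 bases long. It lies at chr7:4518348-4518354 of GRCm38, minus strand, and is shown here with its flanks and the match in capitals because *Tnni3* is the only member that holds one.
Tnni3 site: ggctcccaCACTGTGctctga
The other 8 members had 0 matches in 3′UTRs of 60 to 379 bases.

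The 4 members that rose most are shown with the 250 bases before their RefSeq transcription start, on their own strand and with motifs in capitals, since they moved together. The motifs searched on both strands were the MCAT motif of the TEAD factors (CATTCC), the motif of the GATA factors (AGATAA), the TATA box (TATAAA), the thyroid hormone receptor half-site (AGGTCA), the CArG box bound by SRF and the MEF2 site.
Myh7 promoter, chr14:54994627-54994876, minus strand: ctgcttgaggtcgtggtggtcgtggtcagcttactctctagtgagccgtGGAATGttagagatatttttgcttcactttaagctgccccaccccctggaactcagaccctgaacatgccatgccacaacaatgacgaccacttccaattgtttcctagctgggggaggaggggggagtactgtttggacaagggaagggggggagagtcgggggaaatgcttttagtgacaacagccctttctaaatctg
Actc1 promoter, chr2:114052876-114053125, minus strand: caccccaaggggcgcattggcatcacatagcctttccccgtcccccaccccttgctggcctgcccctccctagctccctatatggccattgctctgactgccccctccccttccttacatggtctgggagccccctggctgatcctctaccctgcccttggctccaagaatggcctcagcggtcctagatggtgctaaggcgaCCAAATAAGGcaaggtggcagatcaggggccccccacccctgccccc
Acta1 promoter, chr8:123894776-123895025, minus strand: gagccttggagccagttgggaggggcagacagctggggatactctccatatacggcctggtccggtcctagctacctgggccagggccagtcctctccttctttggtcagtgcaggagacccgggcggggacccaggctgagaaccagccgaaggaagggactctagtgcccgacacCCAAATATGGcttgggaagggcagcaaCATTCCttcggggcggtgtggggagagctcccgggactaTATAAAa
Nppb promoter, chr4:147985650-147985899, plus strand: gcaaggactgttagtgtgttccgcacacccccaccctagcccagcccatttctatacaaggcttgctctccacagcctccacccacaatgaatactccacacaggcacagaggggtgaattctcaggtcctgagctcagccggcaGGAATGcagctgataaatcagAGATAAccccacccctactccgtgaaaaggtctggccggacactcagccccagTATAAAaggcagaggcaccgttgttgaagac
A MCAT motif was found in *Myh7* (201 to 196 bases before the start), *Acta1* (46 to 41) and *Nppb* (105 to 100), and also in *Myh6* (206 to 201), which makes 4 of the 9 members, where 12.6% of 32851 promoters of this length held one. *Actc1* (47 to 38) and *Acta1* (73 to 64) each held a CArG box, found in 1.47% of all promoters. A GATA motif lay in *Nppb* (84 to 79) and *Myh7b* (133 to 128), against 9.99% of all promoters. A TATA box lay in *Acta1* (7 to 2), *Nppb* (31 to 26) and *Tnnt1* (30 to 25), against 12.4%. All distances depend on the annotated start, and the TATA box of *Acta1* lay nearer to it than the others. *Myh7b* held a thyroid hormone receptor half-site (46 to 41; 14.0% of all promoters), no member held the MEF2 site (2.92%), and *Tnni1* and *Tnni3* held none of these motifs. No matches overlapped, and *Myh7* and *Tnni1* have a further annotated start whose window held no match. A match describes these letters and was not tested for binding.

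Library totals ranged from 8096870 (WH8) to 14359838 (WH10) counts, and 3 counts, taken as the floor of detection, were worth 0.214 to 0.360 CPM, which are counts scaled to a common library total with TMM factors of 0.957 to 1.04. Such floors, and the intervals given for shares, cover counting error only, because reads without molecular identifiers are not independent molecules. Of the *miR-128* loci, *Mir128-1* was at 0 counts throughout, and *Mir128-2* was at 0 in both Ctrl libraries, at 2 counts in WH9 and at 10 in WH10. Mature *miR-128* was not measured by these files. Counts of *Xist* were 14543 and 11339 in the Ctrl libraries against 94 and 132 in the miR-128OE libraries, whereas those of the Y-linked *Ddx3y* were 13 and 7 against 1442 and 1768, so the sex of the mice and the genotype cannot be told apart. The defining markers of cardiomyocytes were present throughout, with a summed level over 8 genes of 23137 to 25607 CPM in Ctrl and 26467 to 27148 CPM in miR-128OE hearts.

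WH7 stood apart from WH8 in atrial genes. The summed level of 8 atrial myocyte markers was 6087 CPM in WH7, 779 CPM in WH8, 2290 CPM in WH9 and 2899 CPM in WH10. The 5 ventricular markers summed to 13366, 16555, 19424 and 19337 CPM in the same order. Among the other cell types, fibroblast markers were lowest in WH8 (5754 CPM, against 7762 to 8908 CPM in the other libraries), endothelial markers ranged from 1393 to 1584 CPM, smooth muscle markers from 1223 to 1936 CPM and macrophage markers from 61.1 to 84.8 CPM. Skeletal muscle markers, counted because *Tnni1*, *Tnnt1* and *Acta1* are also skeletal genes, summed to 26.5 to 37.3 CPM, with the myogenic factor *Myod1* at 0 in every library. Of the erythroid markers *Alas2* rose (log2 fold change 1.05, SE 0.15), while *Hba-a1*, *Hba-a2*, *Hbb-bs* and *Hbb-bt* were all listed at 0.

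**Figure D1:**
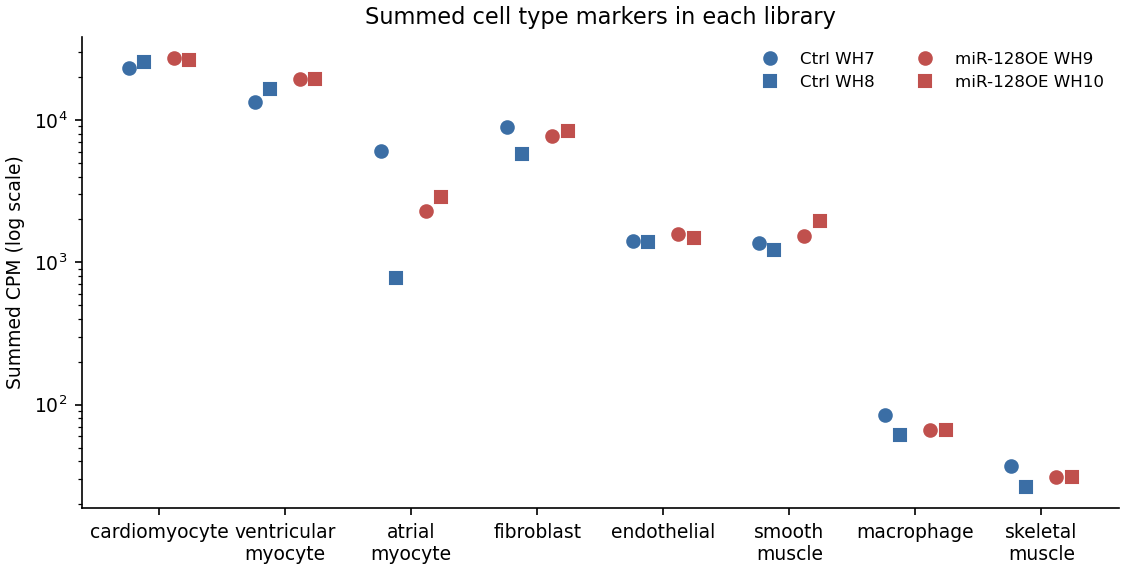
Summed level of each list of cell type markers (CPM, log scale) in each library, with circles and squares for the libraries of a group, blue for Ctrl and red for miR-128OE. The atrial list spreads from 779 CPM in WH8 to 6087 CPM in WH7, while the cardiomyocyte list stays between 23137 and 27148 CPM.

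Of the 9 members, 5 rose in miR-128OE hearts (*Nppb*, *Myh7*, *Actc1*, *Acta1* and *Myh6*), 2 fell (*Tnnt1* and *Myh7b*) and 2 did not pass the test (*Tnni1* and *Tnni3*), at an adjusted p under 0.05 in the edgeR quasi-likelihood fit, with p-values adjusted by Benjamini-Hochberg over all genes tested. The groups differed over much of the transcriptome: 31.5% of all genes tested passed, with 16.5% of all genes higher and 15.0% lower in miR-128OE hearts. Higher genes made up 52.3% of these calls, 35.3% when library totals replaced the TMM factors and 26.2% when libraries were scaled to the cardiomyocyte markers, settings under which the median over all genes was −0.11 and −0.16 on the log2 scale. Under the first of these the members again had 5 higher and 2 lower, and under the second 4 and 2, with *Myh6* lost. Of the 8 cardiomyocyte markers, 3 were themselves higher and 2 lower in miR-128OE hearts, so their sum is not a fixed reference. The median log2 fold change of the 9 members was 0.33, against −0.01 over all genes tested, whose middle 50% ran from −0.33 to 0.27. In all 9 the miR-128OE libraries lay on one side of the Ctrl libraries, as they did for 68.1% of all genes tested. Because the RNA came from heart tissue with several cell types, fewer cells of a type and less RNA per cell cannot be told apart in any of these values. Together the members took 2.46% and 2.43% of all counts in Ctrl and 3.37% and 3.33% in miR-128OE hearts.

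**Figure D2:**
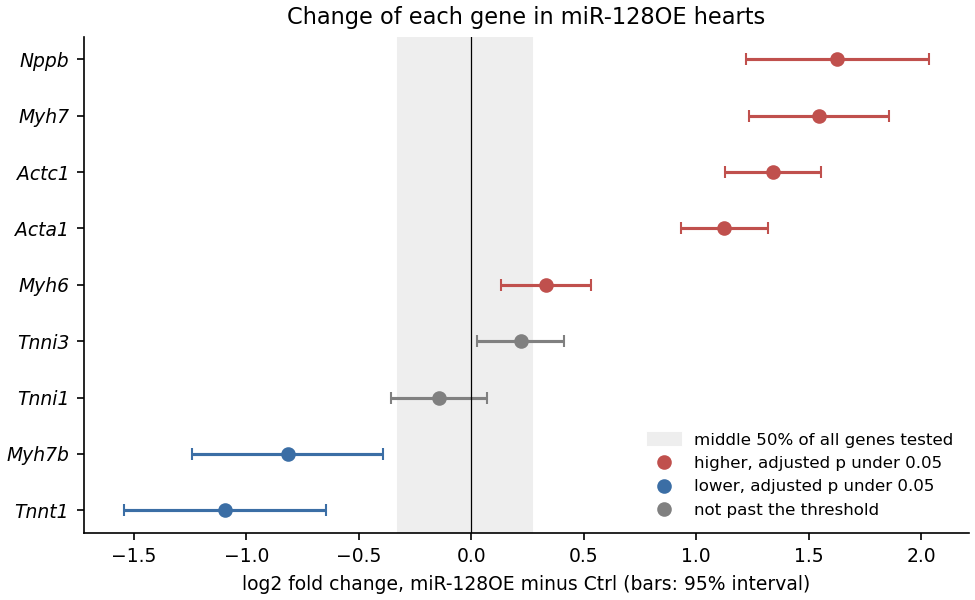
Log2 fold change of each member, miR-128OE minus Ctrl, with its 95% interval as a bar. The grey band holds the middle 50% of all genes tested (−0.33 to 0.27). *Nppb*, *Myh7*, *Actc1* and *Acta1* lie to its right, and *Myh7b* and *Tnnt1* to its left. *Myh6* (0.33) lies just right of the band, with an interval that reaches into it.

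Per kilobase of the longest coding transcript, the order of the mean levels in Ctrl hearts was *Tnni3* (3402 CPM per kb), *Actc1* (2504), *Myh6* (2381), *Tnni1* (790), *Nppb* (113), *Myh7* (108), *Tnnt1* (85.5), *Myh7b* (78.1) and *Acta1* (29.5). From *Nppb* to *Myh7b* the ranges of neighbours in this order overlapped. In miR-128OE hearts the order of the levels became *Actc1* (6342 CPM per kb), *Tnni3* (3963), *Myh6* (2995), *Tnni1* (715), *Nppb* (347), *Myh7* (315), *Acta1* (64.4), *Myh7b* (44.2) and *Tnnt1* (40.4). There *Nppb* overlapped *Myh7*, and *Myh7b* overlapped *Tnnt1*. *Actc1* thus passed *Tnni3*, and *Acta1* moved from the last place to above *Myh7b* and *Tnnt1*.

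**Figure D3:**
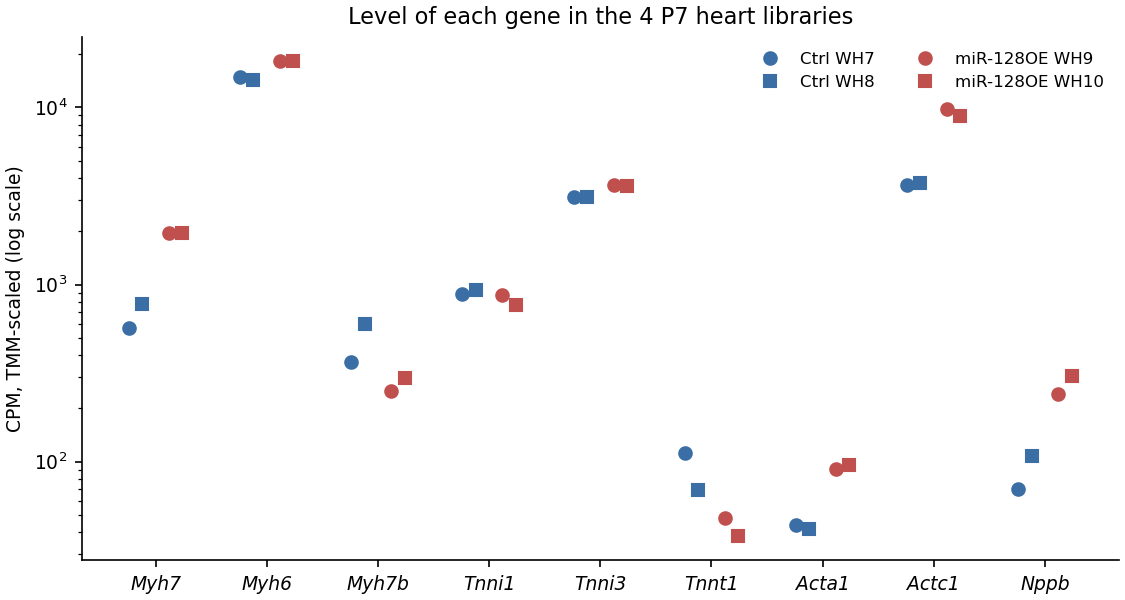
Level of each member (CPM, log scale) in each library, blue for Ctrl and red for miR-128OE. In *Myh7*, *Actc1*, *Acta1* and *Nppb* both red points lie well above both blue points, and in *Tnni1* WH9 (875 CPM) lies just under WH7 (882 CPM).

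Both heavy chains of the cardiac pair rose, *Myh7* by 2.92-fold and *Myh6* by 1.26-fold. *Myh7* (chr14:54970684-54994626 of GRCm38, minus strand) had 7282, 6499, 23317 and 27516 counts in WH7, WH8, WH9 and WH10, or 566, 780, 1961 and 1966 CPM. The miR-128OE libraries nearly coincided, and both lay far above the Ctrl libraries, of which WH8 was the higher. Its mean level went from 673 ± 152 CPM (SD, n = 2) to 1963 ± 3.44 CPM (SD, n = 2), a log2 fold change of 1.55 (SE 0.14, adjusted p = 0.000111, edgeR), or 2.92-fold. Without WH7, the library with the high atrial markers, the log2 fold change of *Myh7* was 1.33, and without WH8 it was 1.80. Fits without 1 library take their variance from the pair that remains. A call gained or lost in them, here and below, need not come from the library removed.

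*Myh6*, the next gene on the chromosome (chr14:54941921-54966927, minus strand, 3756 bases from *Myh7*), was the second most abundant of all genes tested by CPM. It had 191345, 118658, 218578 and 255234 counts, or 14863, 14245, 18382 and 18234 CPM, lowest in WH8 and with no overlap between groups. The change was 1.26-fold (14554 ± 437 CPM to 18308 ± 104 CPM, SD, n = 2 each; log2 fold change 0.33, 95% interval 0.13 to 0.53, adjusted p = 0.0207, edgeR). This call was lost with upper-quartile factors (adjusted p = 0.053, edgeR) and when libraries were scaled to the cardiomyocyte markers (log2 fold change 0.19, adjusted p = 0.25). It was also lost without WH9 and without WH10, though the log2 fold change there was 0.34 and 0.35. As a share of the counts in those 8 markers, some of which themselves changed, *Myh6* stood at 64.2% and 55.6% in Ctrl and 67.7% and 68.9% in miR-128OE hearts. *Myh7* stood at 2.44% and 3.05% against 7.22% and 7.43%.

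The ratio of *Myh7* to *Myh6* counts was 3.81% in WH7, 5.48% in WH8, 10.7% in WH9 and 10.8% in WH10. Both miR-128OE ratios lay far above the higher Ctrl ratio, that of WH8. The difference was 1.23 ± 0.26 (SE) on the log2 scale, or 2.35-fold, and the exact two-sided permutation test gave p = 0.333, which is the smallest that 2 against 2 libraries allow. Per unit of transcript length the ratio was 0.0373 and 0.0537 in Ctrl and 0.105 and 0.106 in miR-128OE hearts. Of the counts on both genes, *Myh7* held 3.67% (95% Wilson interval 3.58 to 3.75%) in WH7, 5.19% (5.07 to 5.32%) in WH8, 9.64% (9.52 to 9.76%) in WH9 and 9.73% (9.62 to 9.84%) in WH10. *Myh6* remained the larger of the pair in every library. The log2 difference of the ratio was 0.97 without WH7 and 1.49 without WH8.

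These myosin transcripts share sequence, and how reads matching more than one gene were counted was not given in the sources used here. Of all 50-base windows of the longest *Myh7* coding transcript, 22.2% also occur in *Myh6*, and 11.2% of its 100-base windows do. The antisense RNA *Mhrt* (chr14:54968678-54974349, plus strand) overlaps *Myh7* by 3666 bases, and the antisense gene *Gm31251* does so by 12209 bases. Without a known handling of strand their reads cannot be told from those of *Myh7*, so the exact split between *Myh7*, *Myh6* and *Mhrt* is uncertain. *Mhrt*, a long noncoding RNA of the cardiac myosin locus, had 120, 103, 83.2 and 97.9 CPM, with a log2 fold change of −0.30 (SE 0.11, adjusted p = 0.056, edgeR), and it passed the threshold as lower in 8 of 15 alternatives.

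The third myosin, *Myh7b*, a slow-type heavy chain gene of cardiac and skeletal muscle (chr2:155611212-155634307, plus strand), went the other way. It had 4715, 4964, 2974 and 4129 counts, or 366, 596, 250 and 295 CPM, with the highest value in WH8 and no overlap between groups. The mean fell from 481 ± 162 CPM (SD, n = 2) to 273 ± 31.7 CPM (SD, n = 2), or 1.76-fold (log2 fold change −0.82, SE 0.19, adjusted p = 0.0103, edgeR). WH8 decides much of this size: the log2 fold change was −0.42 without WH8 and −1.13 without WH7. The call was lost with DESeq2 (adjusted p = 0.092). Without WH9 the log2 fold change was −0.69, and the call was lost there too. No 50-base window of *Myh7b* occurs in another gene.

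Counts on the microRNA genes inside these loci were low. *Mir208b*, within *Myh7*, had 11.0, 16.6, 26.3 and 27.4 CPM and rose (log2 fold change 0.99, SE 0.18, adjusted p = 0.00311, edgeR). *Mir208a*, within *Myh6*, had 3.50, 4.68, 4.37 and 4.86 CPM, with overlapping groups (log2 fold change 0.20, adjusted p = 0.61, edgeR). *Mir499*, within *Myh7b*, had 0, 0, 1 and 3 counts and was not tested. Each lies on the strand of its host, and reads of the host transcript and of the microRNA precursor cannot be told apart, so these values say nothing of the mature microRNAs shown above.

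Neither gene of the troponin I pair passed the test, but they leaned apart. *Tnni1* (chr1:135779434-135810989, plus strand), the slow skeletal form that the fetal heart uses, had 11355, 7794, 10402 and 10759 counts, or 882, 936, 875 and 769 CPM. WH9 lay only just under WH7, and the log2 fold change was −0.15 (95% interval −0.36 to 0.07, adjusted p = 0.27, edgeR). *Tnni3* (chr7:4518305-4524229, minus strand), the cardiac form, had 39913, 25866, 43092 and 50446 counts, or 3100, 3105, 3624 and 3604 CPM. Its groups were tight and apart (3103 ± 3.48 CPM against 3614 ± 14.2 CPM, SD, n = 2 each), with a log2 fold change of 0.22 (95% interval 0.03 to 0.41, adjusted p = 0.080, edgeR). *Tnni3* passed the threshold in 4 of 15 alternatives, among them DESeq2 (adjusted p = 0.045), and with an offset for GC content and length its log2 fold change was 0.07. *Tnni3* holds the single *miR-128* seed match among the members, starting at base 14 of its 3′UTR. Whether *miR-128* acts on *Tnni3* was not tested, and the call of this gene does not hold at the threshold. *Tnni3* overlaps *Dnaaf3* on the same strand by 1297 bases.

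The ratio of *Tnni1* to *Tnni3* counts was 28.4% in WH7, 30.1% in WH8, 24.1% in WH9 and 21.3% in WH10. Both miR-128OE ratios lay under both Ctrl ratios. The means were 29.3 ± 1.19% and 22.7 ± 1.99% (SD, n = 2 each), a log2 difference of −0.37 ± 0.10 (SE), or 1.29-fold lower (exact permutation p = 0.333, the smallest possible). Per unit of transcript length the ratio was 0.226 and 0.239 in Ctrl and 0.191 and 0.169 in miR-128OE hearts. The direction of this ratio was opposite to that of *Myh7* to *Myh6*.

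*Tnnt1*, the slow skeletal troponin T gene (chr7:4504570-4516382, minus strand), is the neighbour of *Tnni3* at a distance of 1922 bases and fell. It had 112, 68.8, 47.8 and 37.9 CPM, from 1445, 573, 568 and 530 counts. WH7 was the highest, and the groups did not overlap. The mean went from 90.5 ± 30.7 CPM (SD, n = 2) to 42.8 ± 7.00 CPM (SD, n = 2), a 2.14-fold fall (log2 fold change −1.10, SE 0.20, adjusted p = 0.00338, edgeR). The size depended on WH7: the log2 fold change was −0.69 without it and −1.39 without WH8. The ratio of *Tnnt1* to *Tnnt2*, the cardiac troponin T gene, was 1.28%, 0.754%, 0.487% and 0.390% in the 4 libraries, a log2 difference of −1.17 ± 0.41 (SE; exact permutation p = 0.333). *Tnnt2* itself had 8785, 9123, 9806 and 9707 CPM (log2 fold change 0.12, adjusted p = 0.32, edgeR).

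**Figure D4:**
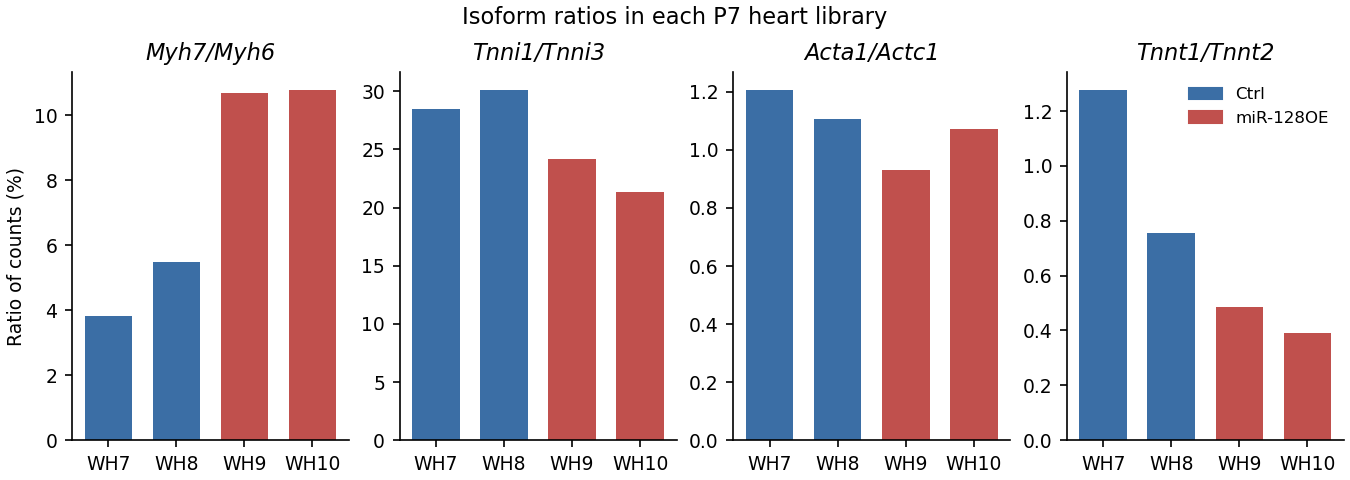
Ratio of the counts of 2 genes (%) in each library for 4 pairs, with blue bars for Ctrl and red bars for miR-128OE, each panel on its own axis from 0. *Myh7*/*Myh6* goes from 3.81 and 5.48% to 10.7 and 10.8%, whereas *Tnni1*/*Tnni3*, *Acta1*/*Actc1* and *Tnnt1*/*Tnnt2* are lower in both miR-128OE libraries.

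Both striated actin genes rose, by similar factors from very different levels. *Actc1* (chr2:114047282-114053548, minus strand) had 46797, 31180, 116226 and 124690 counts, or 3635, 3743, 9774 and 8908 CPM. Replicates lay close together and the miR-128OE libraries were far above Ctrl. The mean rose from 3689 ± 76.5 CPM (SD, n = 2) to 9341 ± 613 CPM (SD, n = 2), or 2.53-fold (log2 fold change 1.34, SE 0.09, adjusted p = 3.35e-05, edgeR). *Actc1* thereby went from 0.378% and 0.385% of all counts to 0.934% and 0.868%. Relative to the cardiomyocyte marker counts it went from 15.7% and 14.6% to 36.0% and 33.7%.

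*Acta1* (chr8:123891769-123894751, minus strand) had 565, 345, 1081 and 1335 counts, or 43.9, 41.4, 90.9 and 95.4 CPM. Replicates again lay close together, with no overlap between groups. The mean rose from 42.7 ± 1.75 CPM to 93.1 ± 3.16 CPM (SD, n = 2 each), or 2.18-fold (log2 fold change 1.12, SE 0.09, adjusted p = 4.93e-05, edgeR). The ratio of *Acta1* to *Actc1* counts was 1.21%, 1.11%, 0.930% and 1.07%, so that WH10 nearly reached WH8. The log2 difference was −0.21 ± 0.12 (SE; exact permutation p = 0.333), from −0.11 to −0.31 when a library was left out. *Acta1* therefore rose in level while its mean ratio to its partner was lower. No 50-base window of *Actc1* occurs in another gene, and 2.22% of those of *Acta1* do, most of them in *Actb*. Both loci lie within genes of the opposite strand, *Acta1* in *Gm20388* and *Actc1* in *A530058N18Rik*. *Actc1* and *Acta1* kept their calls in all 15 alternatives, as did *Myh7* and *Nppb*.

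Of the 3 pairs, the mean ratio of the first to the second gene was higher in miR-128OE hearts in 1, *Myh7*/*Myh6*. It was lower in *Tnni1*/*Tnni3* and in *Acta1*/*Actc1*, a pair in which both genes rose. With 6 ratios compared in all and 2 libraries a group, no adjusted p could pass the threshold. The light chain ratios, added for comparison, overlapped between groups. *Myl4*, the atrial and fetal essential light chain, stood at 24.4%, 3.09%, 8.51% and 10.2% of *Myl3*, its ventricular counterpart, and the regulatory light chain *Myl7* at 23.0%, 2.63%, 7.81% and 7.67% of *Myl2* (exact permutation p = 1 for each). In both of these, WH7 and WH8 lay on opposite sides of the miR-128OE libraries, as in the atrial marker list.

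*Nppb* (chr4:147985788-147987205, plus strand) rose about as much as *Myh7*. It had 897, 895, 2853 and 4237 counts, or 69.7, 107, 240 and 303 CPM. WH8 was above WH7 and WH10 above WH9, and the groups were far apart. The mean rose from 88.6 ± 26.7 CPM (SD, n = 2) to 271 ± 44.4 CPM (SD, n = 2), or 3.09-fold (log2 fold change 1.63, SE 0.18, adjusted p = 0.000293, edgeR). Among all genes tested, 107 had a larger log2 fold change. The log2 fold change was 1.34 without WH7, 1.97 without WH8, 1.80 without WH9 and 1.46 without WH10. It was larger than that of *Myh7* in the fit of all 4 libraries, and smaller without WH10 (*Myh7* 1.56) and with the GC and length offset (*Nppb* 1.46, *Myh7* 1.63).

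*Nppa*, which codes for atrial natriuretic peptide and lies 13516 bases from *Nppb* (chr4:148000722-148002079), was too variable to be placed beside it. It had 2642, 233, 439 and 921 CPM, with groups that overlapped and WH7 above all others (log2 fold change −1.08, SE 0.78, adjusted p = 0.32, edgeR). The direction rests on WH7. Without it the log2 fold change of *Nppa* was 1.55, and without WH8 it was −1.95, each with a lone Ctrl library. The order of *Nppa* over the libraries was that of the atrial marker list, of which it is a member, and the part of atrial tissue in it was not tested. Of the 8 genes of the natriuretic peptide pathway other than *Nppb*, 2 rose and 2 fell, with a median log2 fold change of −0.19. Over all genes tested, 16.5% were higher and 15.0% lower. *Furin*, a protease that cleaves pro-BNP, rose (log2 fold change 0.57, SE 0.11, adjusted p = 0.00509, edgeR), and so did *Mme*, the gene of neprilysin, which degrades natriuretic peptides (0.93, SE 0.26, adjusted p = 0.0216). *Npr2*, the receptor of C-type natriuretic peptide, fell (−0.44, SE 0.10, adjusted p = 0.0104), as did *Corin*, the protease that cleaves pro-ANP (−0.29, SE 0.08). Which genes of this list passed changed when a library was left out. In those fits *Furin* ran from 0.43 to 0.75 and *Mme* from 0.71 to 1.30. *Npr2* ran from −0.53 to −0.32 and *Corin* from −0.34 to −0.20. Scaled to the cardiomyocyte markers, 0 were higher. *Nppb* kept its own call in each of these.

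Among other thin filament genes, 4 of 16 tested rose and 1 fell, with a median log2 fold change of 0.16. The shares over all genes tested were 16.5% higher and 15.0% lower. *Acta2*, the smooth muscle α-actin that the early heart also uses, rose from 627 and 579 CPM to 1060 and 1253 CPM (log2 fold change 0.94, SE 0.10, adjusted p = 0.00029, edgeR), and so did *Tpm2*, β-tropomyosin (1.04, SE 0.13), and *Tnnc1*, cardiac troponin C (0.60, SE 0.09). The fourth was *Tmod1*, a tropomodulin that caps the pointed end of the thin filament (0.66, SE 0.11). The gene that fell was *Tnni2*, fast skeletal troponin I, at 4.97, 2.40, 0.925 and 0.857 CPM. This call was lost without WH7, WH9 or WH10, where the log2 fold change was −1.42, −2.12 and −2.01. Thus all 3 named α-actin genes rose. Of 6 smooth muscle markers *Acta2* itself was higher, *Myh11* was lower and 4 did not pass. Without WH9 the log2 fold change of *Myh11* was −0.28, and its call was lost.

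In the thick filament list 1 of 16 tested genes rose and 2 fell, with a median log2 fold change of 0.14. These counts do not exceed the shares over all genes tested, 16.5% higher and 15.0% lower. *Myl3*, the ventricular essential light chain, rose from 4455 and 5295 CPM to 7662 and 7525 CPM (log2 fold change 0.64, SE 0.10, adjusted p = 0.00201, edgeR). *Ttn*, the gene of the giant protein titin, fell slightly, with a log2 fold change of −0.34 (SE 0.09). With an offset for GC content and length its value was 0.10, so its direction is uncertain. It was not called without WH9 (log2 fold change −0.33) or without WH10 (−0.31). More genes of this list passed as higher without WH7 and as lower without WH8, fits in which the variance came from the miR-128OE pair. The log2 fold change of *Myl4* was 2.12 without WH7 and −0.61 without WH8. That of *Myl7* was 1.65 and −1.14.

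**Figure D5:**
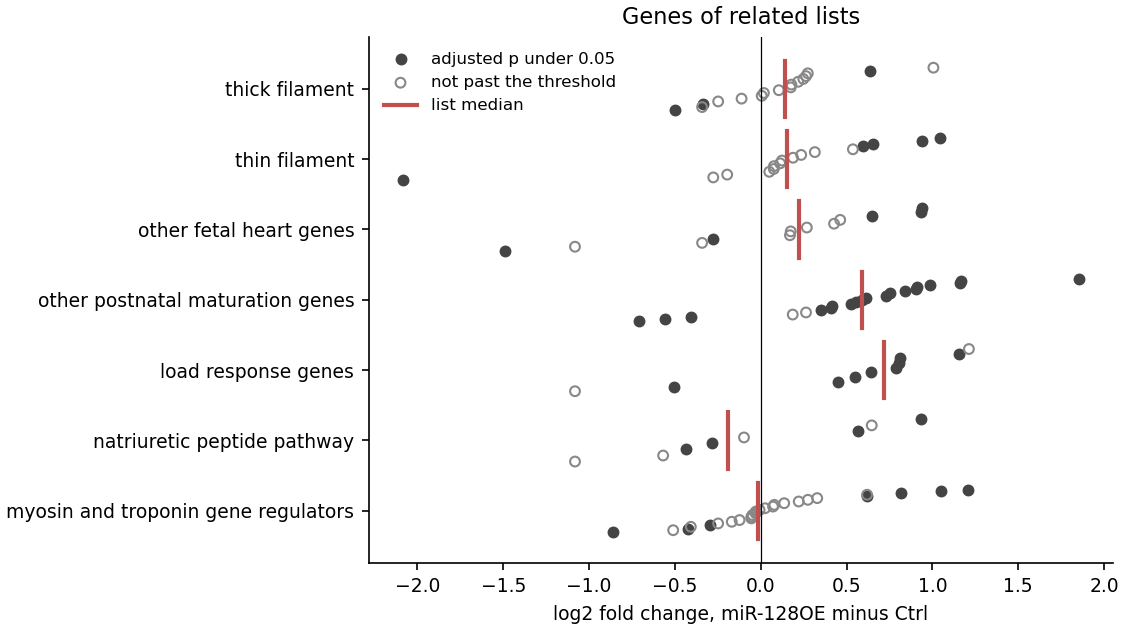
Log2 fold change, miR-128OE minus Ctrl, of each tested gene in 7 lists around the members, filled where the adjusted p was under 0.05, with the list median in red. The postnatal maturation and load response lists have medians of 0.59 and 0.72, and the other lists lie within 0.22 of 0.

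Genes that belong to the same developmental switch outside the sarcomere did not all move as *Myh7* did. Of 12 other genes that the fetal heart expresses at a higher level, 3 rose and 2 fell (median log2 fold change 0.22). Over all genes tested, 16.5% rose and 15.0% fell. With the GC and length offset, 6 of the 12 were higher. Fits without 1 library also changed which of these 12 genes passed. *Ckb*, brain creatine kinase, rose from 111 and 108 CPM to 206 and 213 CPM (log2 fold change 0.94, SE 0.08), and *Acta2* and the hexokinase *Hk1* (0.65, SE 0.08) were the others. *Cpt1a*, the liver-type carnitine palmitoyltransferase, fell slightly (−0.28, SE 0.08), a call lost without WH8, WH9 or WH10, and *Cacna1h*, a T-type calcium channel, fell from 60.7 and 73.6 CPM to 26.4 and 21.4 CPM (−1.49, SE 0.13). In the same libraries 16 of 21 other genes that rise after birth were higher and 3 lower, beside the same shares of 16.5% and 15.0%. The list median was 0.59 on the log2 scale. *Ckmt2*, the mitochondrial creatine kinase of muscle, rose from 185 and 223 CPM to 758 and 719 CPM (1.86, SE 0.11, adjusted p = 8.86e-06, edgeR), *Cox7a1*, a muscle subunit of cytochrome c oxidase, by 0.91 (SE 0.08) and *Slc2a4*, the insulin-responsive glucose transporter GLUT4, by 0.91 (SE 0.08). Among the genes of this list that fell were the ryanodine receptor *Ryr2* (−0.40, SE 0.08) and *Cpt1b*, the muscle-type carnitine palmitoyltransferase (−0.71, SE 0.23). *Cpt1b* was at a low level, with 8.31, 12.2, 5.97 and 6.36 CPM in WH7, WH8, WH9 and WH10. Its call was lost with DESeq2 (adjusted p = 0.093), and its log2 fold change was −0.42 without WH8. Fewer genes of the maturation list passed without WH9, and fewer passed as lower without WH10. In both fits the variance came from the Ctrl pair. Fetal genes such as *Myh7* and *Ckb* and adult genes such as *Ckmt2* and *Slc2a4* were thus higher in miR-128OE hearts. Fetal *Cacna1h* and adult *Ryr2* were lower, *Tnni1* did not pass the test, and the call of *Myh6* was lost in some settings. No test between the lists was run.

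Of 10 genes that respond to load on the heart, 7 rose and 1 fell, with a median log2 fold change of 0.72. For comparison, 16.5% of all genes tested were higher and 15.0% lower. *Ccn2*, the connective tissue growth factor gene, rose from 91.1 and 82.1 CPM to 177 and 209 CPM (log2 fold change 1.15, SE 0.10, adjusted p = 9.65e-05, edgeR). *Xirp2*, an actin-binding protein of the intercalated disc, rose by 0.81 (SE 0.10) and *Rcan1*, a calcineurin target and inhibitor, by 0.64 (SE 0.08). *Ankrd1*, a stress-responsive muscle ankyrin protein named here as the gene that fell, went from 1594 and 1591 CPM to 995 and 1252 CPM (−0.50, SE 0.11, adjusted p = 0.0094, edgeR). *Nppb*, *Myh7* and *Acta1* rose as well, and the part of load in any of these values was not tested. The call of *Ankrd1* was lost without WH9 (log2 fold change −0.33), and the direction of *Nppa*, also on this list, rests on WH7.

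Among 26 regulators known to act on the myosin and troponin genes, 4 rose and 3 fell, with a median log2 fold change of −0.02. Over all genes tested 16.5% rose and 15.0% fell, so these counts do not stand out. *Srf*, the factor that binds the CArG box shown in *Actc1* and *Acta1*, rose from 72.5 and 67.6 CPM to 164 and 160 CPM (log2 fold change 1.21, SE 0.08, adjusted p = 2.74e-05, edgeR). *Nkx2-5*, a cardiac homeobox factor, rose from 47.4 and 44.4 CPM to 98.1 and 92.6 CPM (1.05, SE 0.09), and *Tbx20*, a cardiac T-box factor, from 180 and 147 CPM to 294 and 284 CPM (0.82, SE 0.10). The fourth was *Nfatc1*, a calcineurin-dependent factor (0.62, SE 0.12). Genes of some other factors for the motifs searched, named after their values were seen, moved less or the other way. *Tead3* fell (−0.86, SE 0.12), *Mef2c* fell (−0.42, SE 0.08) and *Thra*, the main thyroid hormone receptor of the heart, fell (−0.30, SE 0.08). *Tead1* (adjusted p = 0.67, edgeR), *Gata4* (0.26) and *Myocd*, the partner of SRF (0.73), did not pass the test and changed sign between alternatives. Nor did other genes of these families pass: *Tead4* (log2 fold change −0.12), *Mef2a* (0.03), *Mef2d* (−0.03), *Thrb* (−0.17) and *Gata6* (0.22). The calls of *Mef2c* and *Thra* were lost without WH9 and without WH10. In those fits the log2 fold change was −0.43 and −0.39 for *Mef2c* and −0.30 and −0.26 for *Thra*. *Nfatc1* was lost without WH9 (log2 fold change 0.50). The part of any of these factors in the members' levels was not tested.

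The genes whose log2 levels, centred over the 4 libraries, lay closest to those of *Myh7* among 5908 genes compared were *Kpna2* (root-mean-square difference 0.017), *Zfp36* (0.063), *Tnfrsf12a* (0.075), *Acyp2* (0.11) and *Nppb* (0.14). *Kpna2*, an importin subunit, had 43.6, 61.2, 153 and 157 CPM, higher in WH8 than in WH7 as *Myh7* is. The list for *Nppb* held the same other 4 genes and *Myh7*, with *Kpna2* first (0.12). For *Tnni1* the closest genes were *Klhl24* (0.015), *Pou6f1* (0.018), *Cnot6l* (0.019), *Cbfa2t2* (0.021) and *Orc4* (0.023). The 4 points share 2 groups, so this likeness is a description with no test.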

How the data were processed

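RNA-seq of P7 mouse hearts was analyzed in 2 Ctrl and 2 miR-128OE libraries. The authors deposited a table of raw read counts per gene, and by their methods low-quality reads were removed, the rest were aligned to mm10 with TopHat2 and reads on known genes were counted with Bioconductor packages. Read length, gene models, strand handling and the treatment of reads that fit several genes were not given in the sources used here. Of 24454 Entrez Gene identifiers, 24381 were matched to a symbol through GENCODE M21 (GRCm38) or the gene name table.

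Counts were tested with the quasi-likelihood F test of edgeR 4.0.16 (R 4.3.3) after filterByExpr (minimum count 10) and TMM scaling, with no covariate, on the model the study's methods name, and p-values were adjusted by Benjamini-Hochberg over 14266 genes at 0.05. CPM values are TMM-scaled. The common biological coefficient of variation was 8.78% and the prior degrees of freedom 7.44. Standard errors were obtained by dividing each log2 fold change by the root of F. Ratios of counts were compared on the log2 scale by exact two-sided permutation tests (scipy 1.17.1, Python 3.11.15). Levels per kilobase used the longest coding transcript. Promoters and microRNAs came from RefSeq (GRCm38.p6), with 9 of 9 members matched, and 3′UTRs from GENCODE M21. *Ctgf* was found under its symbol *Ccn2*.

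The members, lists and tests were chosen with earlier results of these data known. Every member is named, with the 3 genes of smallest p-value in each list and the 5 genes most alike in level (average log2 CPM of at least 5, prior count 2). Genes named outside this rule, which are the remaining called genes of short counts and the regulators so marked, were chosen after their values were seen. A few genes that meet the rule are not reported here. Alternatives were DESeq2 1.42.0, other tests, factors, filters and thresholds, a GC and length offset (loess, span 0.5) and each library left out.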

Additional observations from a re-analysis of the deposited data

How the results depend on the processing

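Across 15 alternatives *Myh7*, *Actc1*, *Acta1* and *Nppb* were called higher in every one, *Tnnt1* lower in 14, *Myh7b* lower in 12 and *Myh6* higher in 10, while *Tnni1* was called in 0, and no member changed direction. When a library was left out, 4 to 6 members were higher and 1 to 2 lower, and over all genes 897 to 2654 were higher and 667 to 2384 lower, against 2347 and 2143 with all libraries. DESeq2 gave 1 lower member and 1403 lower genes, a 1.5-fold threshold 0 lower members, 249 higher and 216 lower genes, and scaling to cardiomyocyte markers 1042 higher genes. The log2 differences of the light chain ratios changed sign: *Myl4*/*Myl3*, 0.10 with all libraries, was −0.69 from pooled counts, −0.46 from the fitted changes and −1.39 (without WH8) to 1.59 (without WH7) when a library was left out, and −0.03 without WH10, and *Myl7*/*Myl2*, −0.01 with all libraries, ran from −1.57 (without WH8) to 1.56 (without WH7), with 0.0064 without WH10. Of 54 genes compared over these alternatives, those that changed sign were *Nppa* (−1.95 without WH8 to 1.55 without WH7), *Ttn* with a GC and length offset (0.10), *Mir208a* (−0.017 without WH7 to 0.41 without WH8), *Myl7* (−1.14 without WH8 to 1.65 without WH7), *Myl4* (−0.61 without WH8 to 2.12 without WH7) and, scaled to cardiomyocyte markers, *Myl4* (−0.016) and *Tnnt2* (−0.016), the last being itself one of those markers, along with the regulators *Tead1* (to 0.051) and *Myocd* (to 0.018) without WH8 or with the GC and length offset and *Gata4* (to −0.0033) when scaled to those markers. For the others the cause was not tested. No paired analysis was possible because the labels give each library its own number and no number is shared between the groups. With 2 libraries a group, an exact test of a ratio cannot go below p = 0.333, and where a library was left out the lone library of that group was assumed to vary like the other group.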
